A study of Mus musculus with 72 samples.

Results

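Among the probes of an Agilent mouse expression array, 4449 did not carry a gene name but a stretch of the genome, written as a chromosome, a start, an end and a strand letter, F or R, in build mm9. These are the array's probes for large intergenic non-coding RNAs (lincRNAs). Of these, 3509 (78.9%) were well above background on at least 1 of 36 arrays of liver and lung from irradiated mice and are described here. The other 940 were never well above background and entered no comparison. Of the array's other probes, 84.1% passed the same condition. The 3509 probes, 1740 on strand F and 1769 on strand R, lay on 3229 distinct stranded intervals, with a median length of 10826 bp and a range from 62 to 538251 bp.

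LincRNAs are transcribed by RNA polymerase II from DNA between protein-coding genes, and many are capped, spliced and polyadenylated like messenger RNAs without coding for a protein. They are often expressed at low levels and in few tissues. After ionizing radiation, the transcription factor p53 switches on genes for cell cycle arrest, DNA repair and cell death, and some lincRNAs are among its targets. The best known in mouse is lincRNA-p21 (Trp53cor1), next to Cdkn1a, the gene of the cell cycle inhibitor p21. Most intervals on the array have no known function, so that their position, strand and neighbours are what can be said of their identity.

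The RNA came from female C57BL/6J mice of 6 to 8 weeks that received a single whole body dose of 0, 1, 2, 4, 8 or 12 Gy of X-rays and were killed 48 h later, with 3 mice at each dose. The 0 Gy mice were the controls, and no group carried a transgene or a drug. Liver and lung carried the same sample numbers, read here as mouse numbers. They were hybridized to separate 1-colour arrays, 18 for each tissue, and the RNA is that of all cells of the organ. In such bulk samples fewer cells of a type and less RNA per cell cannot be told apart. The labelled tissues carried their markers. All 15 hepatocyte genes were well above background on all 18 liver arrays, and all 12 genes of lung epithelium on all 18 lung arrays. Detection alone did not separate the tissues. Of the hepatocyte genes 10 passed on all lung arrays, and of the lung genes 4 on all liver arrays. With each tissue normalized alone, the summed hepatocyte level was 3887971 to 3973462 in 0 Gy livers and 49154 to 62368 in 0 Gy lungs. It reached 207384 in a 4 Gy lung. The summed lung level was 1596957 to 1708628 in 0 Gy lungs and 5182 to 7830 in 0 Gy livers. The sequences of the array's probes were not used here, and gene positions in mm9 were not used either, so the neighbours given below are other lincRNA probes of the array and not genes.

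The arrays lay on 5 slides, and doses were not spread over them. The liver slides held 0 and 1 Gy with 2 mice of 2 Gy on slide 1, the other 2 Gy mouse with 4 Gy, 8 Gy and 1 mouse of 12 Gy on slide 2, and the other 12 Gy mice on slide 3. In lung, 0 and 1 Gy lay on slide 3, then 2 Gy, 4 Gy and 2 mice of 8 Gy on slide 4, and the third 8 Gy mouse (mouse 25) with all 12 Gy mice on slide 5, scanned on another day. Between 26.9% and 37.7% of lincRNA probes were well above background on a liver array. In lung the share was 38.8% to 48.4% on slides 3 and 4 but 31.7% to 32.6% on slide 5, while over all probes it was 57.3% to 62.3% and 52.0% to 52.7%. The 12 Gy lung group therefore cannot be told apart from its slide. The lungs of 2, 4 and 8 Gy shared no slide with the 0 Gy lungs, so their changes cannot be told apart from slide either. The lung counts, and the lung trends of the probes that matter most, are also given without the 4 arrays of slide 5. Those fits still set slide 4 against slide 3. No spot was saturated, and replicate arrays of a group correlated at 0.9735 to 0.9932 over the probes.

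Detection differed between the tissues. Of the 3509 probes, 2315 (66%) were well above background in both tissues on at least 1 array, 844 in lung only and 350 in liver only. A core of 748 was well above background on all 36 arrays, 900 on all liver arrays and 1175 on all lung arrays, whereas 610 passed on exactly 1 array. The last group sets a limit on what follows, since a probe that passes only through the array where it is high has no measured level elsewhere.

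In liver few lincRNA probes changed, most of those that did were higher after irradiation, and the number grew up to 8 Gy. Each dose was compared with 0 Gy by limma over all tested probes of the array, and a call needed both a log2 change beyond 1 in either direction and an adjusted p below 0.05. Of 2665 lincRNA probes tested, 0 were called at 1 Gy by limma, although 163 had an unadjusted p below 0.05. At 2 Gy 4 were called higher and 0 lower, at 4 Gy 13 and 5, at 8 Gy 23 and 8, and at 12 Gy 14 and 6. A linear dose trend, given as the log2 change over 12 Gy, called 17 higher and 8 lower. These counts were read against the calls over all 38362 tested probes, of which 0.013% were called higher and 0.0209% lower at 1 Gy, 0.0808% and 0.164% at 2 Gy, 0.321% and 0.623% at 4 Gy, 0.839% and 1.37% at 8 Gy, 0.73% and 1.33% at 12 Gy, and 0.892% and 1.14% on the trend. The lincRNA share called higher was 0.15% at 2 Gy and 0.488% at 4 Gy, above that of all probes, 0.863% at 8 Gy, near it, and 0.525% at 12 Gy and 0.638% on the trend, under it. The shares at 2 and 4 Gy rest on 4 and 13 probes. The share called lower was 0.3% at 8 Gy and 0.3% on the trend, below that of all probes. At 8 Gy the median log2 change was 0.15 over the lincRNA probes and 0.0048 over all probes.

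**Figure D1:**
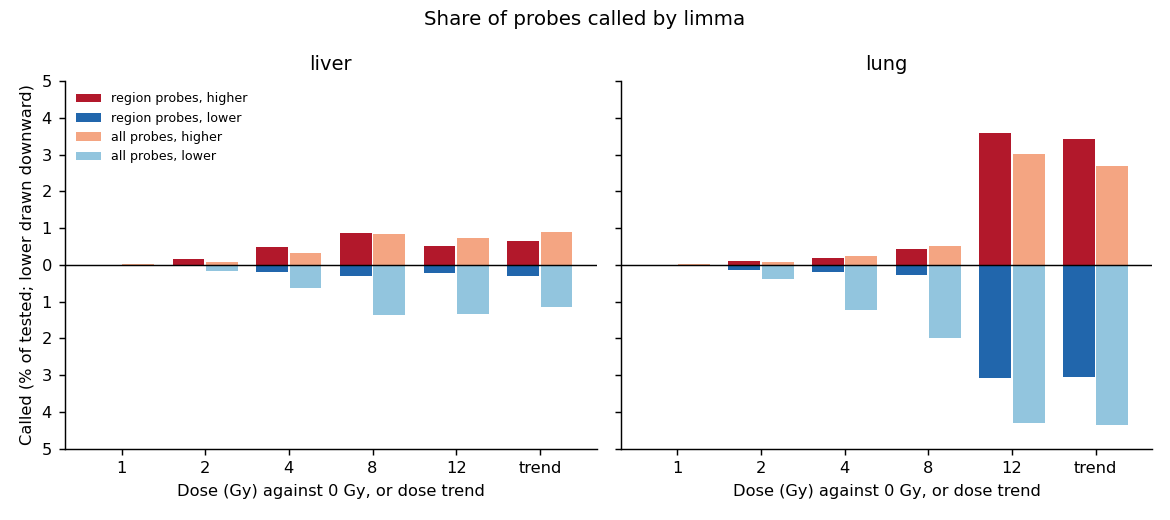
Percent of tested probes called by limma at each dose in Gy against 0 Gy and on the dose trend, in liver and lung, with 3 mice per dose. Dark bars are the lincRNA region probes and pale bars all tested probes of the array, with probes called higher above 0 and probes called lower below 0. In liver the lincRNA share called lower stays below that of all probes at every dose, and in lung both shares are highest at 12 Gy and on the trend.

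Calls rested mostly on single doses. In liver 49 probes were called at 1 dose or more, 34 of them at 1 dose, 6 at 2 and 9 at 3 or more, and with the trend 58 were called in all. Of these 58, 43 had a positive trend, and 23 of the 43 were well above background on all 18 liver arrays. Of the 15 with a negative trend 3 were so. With the slide as a term in the model the liver trend had 3 calls, 0 of them among the 25 of the model without it, and the doses 2, 4, 8 and 12 Gy had 1, 2, 15 and 23 calls. Every liver trend called and named below lost its call in that model. The livers of 4, 8 and 12 Gy shared no slide with those of 0 Gy, and the term is set through the 2 Gy livers on slides 1 and 2 and the 12 Gy livers on slides 2 and 3. The p-values rest on a spread between mice that was pooled for each probe over all 6 doses and moderated across probes. They do not measure the spread at a given dose. For the trend, departures from a straight line are part of that spread.

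The lincRNA with the largest trend in liver lay on chromosome 17. Probe A_30_P01020960 (chr17:29183003-29217681, strand R, 12 of 18 liver arrays and all 18 lung arrays well above background) rose with dose in both tissues. Its log2 levels in the 3 liver mice of each dose were 3.94, 4.40 and 4.86 at 0 Gy, 5.38, 4.38 and 4.63 at 1 Gy, 6.15, 5.52 and 5.00 at 2 Gy, 5.96, 5.79 and 5.51 at 4 Gy, 5.95, 6.17 and 7.44 at 8 Gy, and 7.58, 7.24 and 6.86 at 12 Gy. None of the 0 Gy livers was well above background, and from 2 Gy upward every liver lay above all of them. The 12 Gy level was at least 6.41-fold higher than that of 0 Gy (adjusted p = 0.000637), the 8 Gy level at least 3.93-fold (adjusted p = 0.00484), and the trend was 2.64 ± 0.32 (SE) with an adjusted p of 4.91e-05. With the slide as a term the liver trend was 3.16 with an adjusted p of 0.0544.

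In lung the same probe, A_30_P01020960, was at 6.90, 6.07 and 5.90 at 0 Gy, 7.76, 7.26 and 7.75 at 1 Gy, 8.51, 7.80 and 8.03 at 2 Gy, 8.57, 8.55 and 8.06 at 4 Gy, 8.77, 8.65 and 9.21 at 8 Gy, and 9.61, 10.04 and 9.62 at 12 Gy. Each irradiated lung exceeded every control lung. The log2 change was 1.30 ± 0.27 at 1 Gy, which was not called, and the probe was called at the other 4 doses, from 1.82 at 2 Gy (adjusted p = 0.00418) to 3.47 at 12 Gy (adjusted p = 9.92e-07). Without slide 5 the lung trend was 3.16 with an adjusted p of 0.0174. That slope was fitted on 0 to 8 Gy and scaled to 12 Gy, and the 8 Gy change without slide 5 was 2.42. With the slide as a term the lung trend was 1.65 with an adjusted p of 0.662. The difference between the trends of lung and liver was -0.43 ± 0.55 (adjusted p = 0.651).

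The array holds other probes over this stretch. A_30_P01021480 (chr17:29192453-29216073), within the same interval and on the same strand, rose in lung with a trend of 1.30 ± 0.17 (adjusted p = 2.48e-05) and was called there at 8 and 12 Gy. In liver, where it was well above background at 0 Gy, its trend was 0.40 ± 0.18 and was not called. The probe for strand F of the interval, A_30_P01022200, was never well above background. The probe that the array names lincP21 was untested in liver, where no array was well above background, had a lung trend of 0.00 ± 0.25, and was well above background on 2 of the 18 lung arrays. The study itself reports Trp53cor1 as higher in liver at 2 Gy and above. Whether A_30_P01020960 reads lincRNA-p21 was not tested here, because its sequence was not used. For reference, Cdkn1a rose in liver by 2.58 on the log2 scale at 1 Gy and by 6.33 at 12 Gy, and in lung by 1.77 and 3.65.

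**Figure D2:**
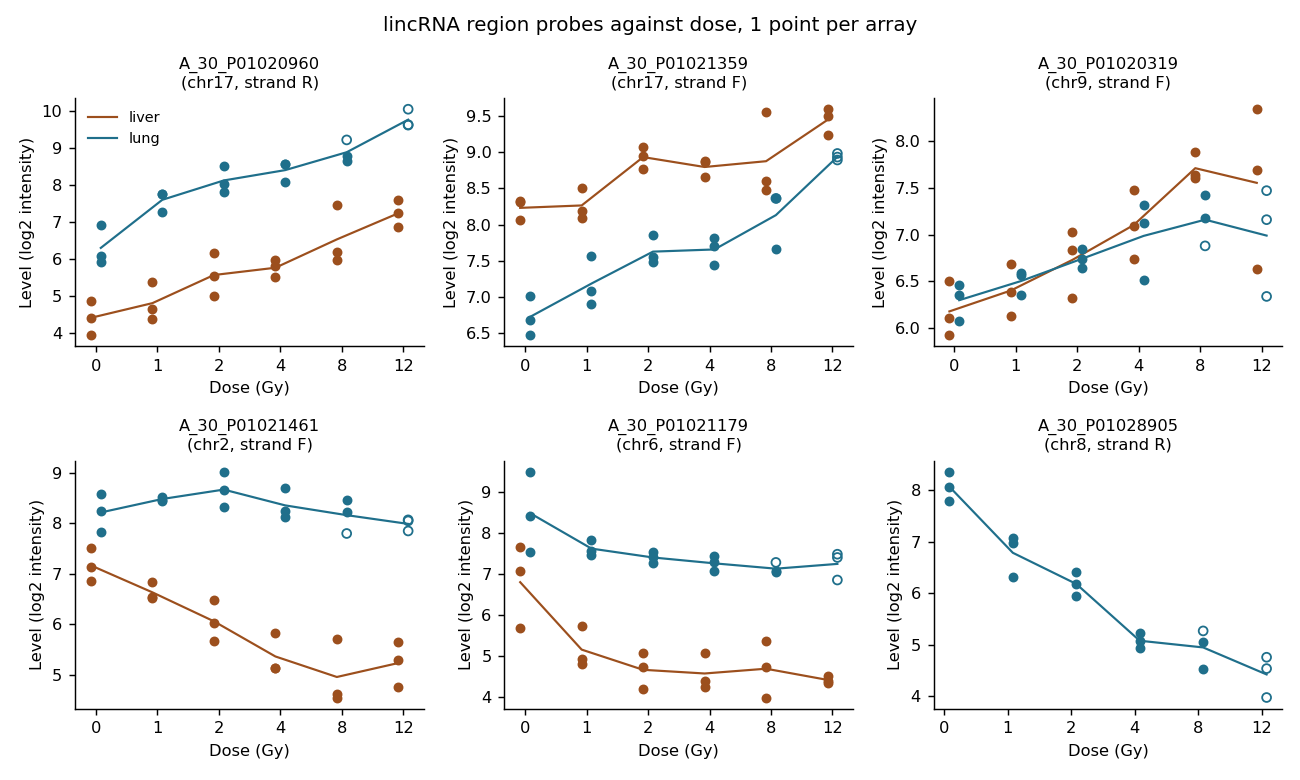
Log2 level of named lincRNA probes in each mouse against dose in Gy (doses equally spaced), for liver and lung, with lines through the group means. Each point is 1 mouse, open points are the 4 lung arrays of slide 5, and A_30_P01020960 climbs with dose in both tissues.

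A second group that rose in both tissues lay on chromosome 1, where 4 intervals on strand F overlap or lie side by side. The interval of A_30_P01026536 (chr1:163508244-163586072) spans the other 3, which are A_30_P01026167 (chr1:163527603-163527999), A_30_P01025143 (chr1:163528200-163528398) and A_30_P01026752 (chr1:163528792-163529312). The short intervals lie inside the long one, so the probes share a stretch of genome and are not independent observations. A_30_P01026752 stood at 6.39, 6.10 and 6.31 in the 0 Gy livers and at 7.75, 7.80 and 7.72 in the 12 Gy livers. At 4 Gy and above each liver lay over all controls, and the log2 change was 1.1 ± 0.19 at 4 Gy (adjusted p = 0.00746), 1.1 at 8 Gy (adjusted p = 0.00345) and 1.49 at 12 Gy (adjusted p = 0.000354). At 1 and 2 Gy its groups overlapped with the controls.

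In lung, A_30_P01026752 was at 6.85, 7.68 and 7.22 at 0 Gy, 8.22, 7.90 and 8.18 at 1 Gy, 8.28, 8.26 and 8.39 at 2 Gy, and 8.68, 8.76 and 8.69 at 12 Gy. All irradiated lungs lay above the controls, the probe was called at 2, 4, 8 and 12 Gy, and most of its rise was reached by 2 Gy. The long interval's probe A_30_P01026536 had trends of 1.41 ± 0.21 in liver (adjusted p = 0.000302) and 1.75 ± 0.22 in lung (adjusted p = 2.27e-05). It stood at 6.23, 6.63 and 6.22 in the 0 Gy livers and at 7.78, 7.90 and 7.92 in the 12 Gy livers. At 8 Gy 1 liver, at 6.40, lay among the controls.

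The short interval of A_30_P01025143 had trends of 1.42 ± 0.20 in liver (adjusted p = 0.00022) and 1.1 ± 0.21 in lung (adjusted p = 0.000757). A_30_P01026167 had a lung trend of 1.17 ± 0.18 (adjusted p = 0.000167) and a liver trend of 0.94 ± 0.21 that was not called, and it was well above background on 5 of 18 liver arrays. A second probe of that interval, A_30_P01021998, was untested in liver and had a lung trend of 0.49 ± 0.28, not called. On the opposite strand of the long interval, A_30_P01017790 was called in lung at 12 Gy with a log2 change of 1.08 ± 0.20 (adjusted p = 0.00186), while in liver it was near background with a trend of -0.31 ± 0.48. Without slide 5 the lung trends of A_30_P01026536, A_30_P01026167, A_30_P01025143 and A_30_P01026752 were 1.76, 1.74, 1.79 and 1.69, and each was called. In the model with a slide term they were 1.16 (adjusted p = 0.694), 0.82 (adjusted p = 0.658), 1.39 (adjusted p = 0.321) and 0.57 (adjusted p = 0.953), and none was called.

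**Figure D3:**
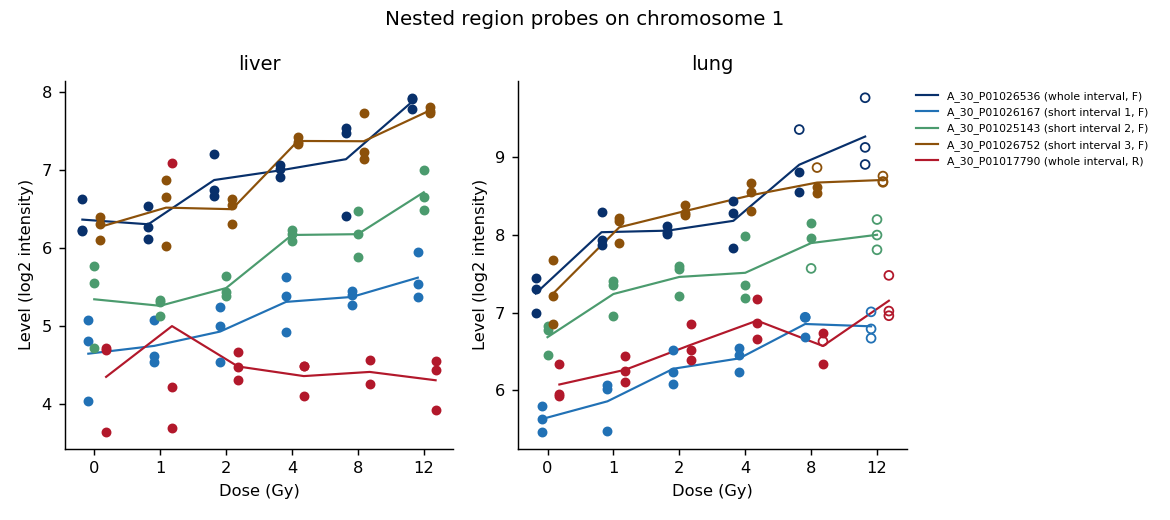
Log2 level of the chromosome 1 probes in each mouse against dose in Gy (doses equally spaced), in liver and lung. Each point is 1 mouse and open points are the arrays of slide 5. The strand F probes are higher at 12 Gy than at 0 Gy in both tissues, and the strand R probe A_30_P01017790 is near background in liver.

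Other lincRNAs rose in liver. A_30_P01020319 (chr9:70017793-70045355, strand F) was at 6.11, 5.93 and 6.50 in the control livers, at 7.88, 7.64 and 7.61 at 8 Gy and at 6.63, 7.69 and 8.34 at 12 Gy, with a trend of 1.46 ± 0.29 (adjusted p = 0.00322). Its 12 Gy livers spread over more than 1 log2 unit, yet all lay above the controls. In lung the trend of A_30_P01020319 was 0.67 ± 0.22 with all arrays, which was not called, and 1.5 ± 0.28 without slide 5 (adjusted p = 0.0058), which was. A_30_P01024020 (chr1:133839368-133839762, strand F) was at 5.57, 5.10 and 6.00 at 0 Gy, 7.33, 7.07 and 7.87 at 4 Gy, and 7.19, 7.12 and 7.05 at 12 Gy in liver. It was called at 4, 8 and 12 Gy, with its largest log2 change, 1.87 ± 0.31, at 4 Gy (adjusted p = 0.00575). In lung its trend of 0.81 ± 0.14 stayed under the fold threshold (adjusted p = 0.000421).

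A_30_P01021359 (chr17:71183978-71185384, strand F) rose in both tissues. Its livers were at 8.32, 8.06 and 8.31 at 0 Gy and 9.50, 9.59 and 9.24 at 12 Gy, and its lungs at 6.69, 7.01 and 6.48 at 0 Gy and 8.89, 8.93 and 8.98 at 12 Gy. The groups were apart in both tissues. The trend was 1.03 ± 0.21 in liver (adjusted p = 0.00405) and 1.92 ± 0.20 in lung (adjusted p = 2.54e-06), and 1.76 in lung without slide 5 (adjusted p = 0.0201). The lung trend of A_30_P01021359 was 1.12 with the slide as a term (adjusted p = 0.536). The liver trend is near the threshold, and leaving out any of 6 single livers (mouse 11 at 0 Gy, 12 and 22 at 1 Gy, 25 at 8 Gy, 6 and 16 at 12 Gy) ended its call.

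A further set of liver probes was up at intermediate doses without a linear trend. A_30_P01017625 (chr7:111526943-111545093), A_30_P01031521 (chr8:108153471-108159346) and A_30_P01031052 (chr19:16059564-16085402), all on strand F, and A_30_P01028332 (chr4:119967625-119978325, strand R) were each called higher at 2, 4 and 8 Gy and not at 12 Gy. A_30_P01031052 was at 9.81, 9.55 and 9.24 at 0 Gy, 11.04, 10.18 and 10.62 at 1 Gy, 10.66, 10.90 and 11.12 at 2 Gy, 11.02, 11.04 and 10.89 at 4 Gy, 10.83, 10.60 and 11.06 at 8 Gy, and 10.34, 10.71 and 10.37 at 12 Gy. Every irradiated liver was above every control, and the log2 changes ran 1.08, 1.35, 1.45, 1.29 and 0.93 ± 0.21 from 1 to 12 Gy. For A_30_P01017625 they ran 1.12, 1.34, 1.19, 1.25 and 0.76 ± 0.22. With all arrays none of these 4 probes was called in lung, where the trend of A_30_P01031052 was -0.19 ± 0.22 and that of A_30_P01017625 was -0.29. Without slide 5 the lung trend of A_30_P01017625 was 1.42 ± 0.26 (adjusted p = 0.00467) and was called. It was scaled from 0 to 8 Gy to 12 Gy, and the 8 Gy change was 0.84, under the fold threshold.

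Liver probes on 2 intervals had the slide pattern in their levels. A_30_P01025521 (chr6:92040526-92041319, strand F) and A_30_P01020464 (chr5:52461266-52541416, strand R) were called on the liver trend, at 1.38 ± 0.29 and 1.40 ± 0.33. A_30_P01025521 was at 9.98 and 10.49 in the 2 Gy livers of slide 1 and at 11.30 in the 2 Gy liver of slide 2, and the levels of A_30_P01020464 were 8.77, 9.43 and 10.31 in these mice. With the slide as a term the trends were 0.28 (adjusted p = 0.858) and 0.20 (adjusted p = 0.912).

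Few lincRNAs fell in liver. A_30_P01021461 (chr2:119697845-119719245, strand F) fell with dose, from 6.85, 7.52 and 7.13 at 0 Gy through 6.54, 6.83 and 6.53 at 1 Gy and 5.67, 6.03 and 6.48 at 2 Gy to 5.82, 5.14 and 5.13 at 4 Gy, 4.55, 4.61 and 5.71 at 8 Gy and 4.76, 5.64 and 5.30 at 12 Gy. Each irradiated liver was below every control. The log2 change was -1.80 ± 0.32 at 4 Gy (adjusted p = 0.00814), -2.21 at 8 Gy (adjusted p = 0.00106) and -1.93 at 12 Gy (adjusted p = 0.00221). In lung the trend was -0.45 ± 0.20 and not called, and the lung trend lay above the liver trend by 1.79 ± 0.51 (adjusted p = 0.0146).

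A_30_P01021179 (chr6:134879009-134880130, strand F) fell in both tissues. Its control livers were far apart, at 5.67, 7.06 and 7.66, and from 1 Gy on 13 of 15 livers were not well above background. The fall was at least 4.48-fold at 4 Gy (adjusted p = 0.0156) and at least 5.07-fold at 12 Gy (adjusted p = 0.00513). Its lungs were at 7.54, 8.42 and 9.49 at 0 Gy and at 7.40, 7.48 and 6.85 at 12 Gy, a log2 change of -1.24 ± 0.34 (adjusted p = 0.0176). A second probe of the same interval and strand, A_30_P01023527, was called in neither tissue, with trends of -0.13 ± 0.23 and -0.47 ± 0.23, and was near background on most arrays.

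A_30_P01030698 (chr11:16831925-16851121, strand R) was well above background on 2 of 18 liver arrays, both at 0 Gy. It stood at 5.41 to 5.53 in the 0 Gy livers and at 4.01 to 4.62 in the 12 Gy livers. Since it entered the liver test only through the group where it was high, its liver call is given as a description and not as a tested fall. In lung it was at 6.75, 7.35 and 7.42 at 0 Gy, 5.50, 5.64 and 6.06 at 2 Gy, and 6.17, 5.62 and 5.32 at 12 Gy, and it was called at 2, 4, 8 and 12 Gy with log2 changes between -1.02 and -1.47. A_30_P01019123 (chr17:95150800-95180650, strand F) was called in liver at 8 Gy only, at -1.36 ± 0.39 (adjusted p = 0.0414), where the groups overlapped. In lung it was called at 4, 8 and 12 Gy, with levels of 7.95, 7.98 and 8.98 at 0 Gy and 6.55, 7.0 and 6.88 at 12 Gy. A_30_P01018486 (chr1:59449275-59474025, strand F) was well above background only at 0 and 1 Gy in liver and never in lung. Its levels, 5.12 to 5.91 in the 0 Gy livers and 3.68 to 4.46 in the 12 Gy livers, are a description for the same reason. Of the 58 probes called in liver 9 were well above background in 1 dose group alone, and of the 258 called in lung 27.

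A_30_P01024210 (chr4:88745770-88774130, strand R), which was well above background in no lung, fell on the liver trend at -1.46 ± 0.38 (adjusted p = 0.0201). Its livers were at 5.91, 6.29 and 6.12 at 0 Gy and at 4.38, 5.54 and 3.86 at 12 Gy, and the groups of 1, 2, 4 and 8 Gy overlapped with the controls.

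Markers of blood cells moved in the same samples. Of 13 B cell genes tested in liver 7 were called lower at 4, 8 and 12 Gy, and of 12 T cell genes 1, 4 and 5. The summed level of the B cell list was 1605 to 1991 in the 0 Gy livers and 591 to 648 in the 8 Gy livers, and only 3 of its genes were well above background on all 18 liver arrays. For the T cell list it was 9819 to 13795 and 9955 to 13194. Of 10 erythroid genes 2, 1 and 2 were called lower at 4, 8 and 12 Gy. Of 13 neutrophil genes 1 was called higher and 1 lower at 8 Gy, and so at 12 Gy. The summed erythroid level was 28874 to 36026 in the 0 Gy livers and 40010 to 42241 in the 8 Gy livers. The neutrophil list had 20218 to 22200 and 31947 to 37943. The part of these cells in the lincRNAs that fell was not tested.

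In lung the calls were few up to 8 Gy and many at 12 Gy. Of 3159 lincRNA probes tested, 0 were called at 1 Gy by limma, with 170 at an unadjusted p below 0.05. At 2 Gy 3 were called higher and 4 lower, at 4 Gy 6 and 6 of 3158, at 8 Gy 14 and 9, and at 12 Gy 113 and 97. The trend called 108 higher and 96 lower. Over all 43979 tested probes 0.0114% were called higher and 0.0114% lower at 1 Gy, 0.0705% and 0.373% at 2 Gy, 0.239% and 1.22% at 4 Gy, 0.525% and 1.99% at 8 Gy, 3.03% and 4.3% at 12 Gy, and 2.7% and 4.35% on the trend. The lincRNA share at 12 Gy was 3.58% higher and 3.07% lower, near the array's share in the first direction and below it in the second. In all 258 lincRNA probes were called in lung at a dose or on the trend, 191 of the 214 called at a dose being called at 1 dose.

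The 12 Gy calls in lung were followed into the 8 Gy group, which lay on 2 slides. For the 97 probes called lower at 12 Gy the median log2 change from 0 Gy was -1.32 at 12 Gy, 0.04 in the 2 lungs of 8 Gy on slide 4 and -1.12 in mouse 25 on slide 5. Of the 97, 58 were lower by more than 1 in mouse 25 and 8 in the mean of the other 2 mice. For the 113 called higher the medians were 1.23, 0.47 and 1.02, with 57 and 11 past 1. The probes called lower were well above background in 65 to 80 cases on each of the 14 arrays outside slide 5, and in 30 to 32 on the 4 arrays of slide 5. Mouse 25 thus lay with the 12 Gy group that shared its slide and not with the mice that shared its dose.

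Leaving out slide 5 left doses 0 to 8 Gy. The lung trend then called 82 lincRNA probes higher and 11 lower, 31 of them among the 204 called with all arrays, and 604 had an unadjusted p below 0.05. Over all probes 1.68% were called higher and 2.52% lower. Of the 96 probes called lower with all arrays 46 had a positive trend without slide 5, and of the 108 called higher 8 had a negative one. At 8 Gy the 2 mice of slide 4 gave 18 calls higher and 10 lower, against 0.637% and 1.86% of all probes, and 17 of the 28 were among the 23 called with mouse 25. A slide term in the model left the lung trend with 3 calls, 1 of them among the 204. The called lung trends of named probes lost their call in that model wherever it was computed for them, among them A_30_P01028905 at -2.96 (adjusted p = 0.145), A_30_P01021863 at -1.55 (adjusted p = 0.882), A_30_P01018185 at -0.77 (adjusted p = 0.874), A_30_P01033296 at 1.37 (adjusted p = 0.81) and A_30_P01021999 at 1.56 (adjusted p = 0.547). As a random block the slide left 146 calls, all among the 204.

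**Figure D4:**
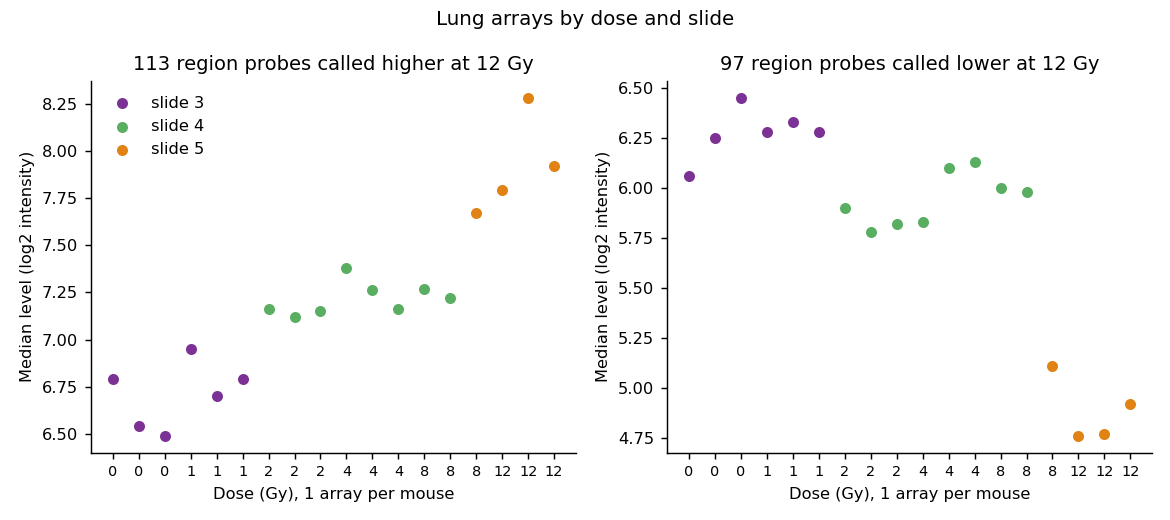
Median log2 level of the lincRNA probes called higher (113) and lower (97) at 12 Gy in lung, for each lung array in order of dose in Gy, with the slides marked. The 4 arrays of slide 5 stand apart from the 14 others, mouse 25 of the 8 Gy group included.

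The lincRNAs that fell furthest in lung were already lower at 2 or 4 Gy, on slide 4, against controls on slide 3. A_30_P01028905 (chr8:26212577-26218527, strand R) was at 7.79, 8.05 and 8.35 at 0 Gy, 7.07, 6.31 and 6.97 at 1 Gy, 6.42, 6.18 and 5.94 at 2 Gy, 5.23, 5.08 and 4.93 at 4 Gy, 5.05, 4.53 and 5.27 at 8 Gy, and 4.76, 3.98 and 4.54 at 12 Gy. The groups were apart at every dose, and from 8 Gy on no lung was well above background. The log2 change was -1.88 ± 0.26 at 2 Gy (adjusted p = 0.00222) and -2.98 at 4 Gy (adjusted p = 8.17e-06), and the level was at least 8.33-fold lower at 12 Gy (adjusted p = 3.01e-07). Without slide 5 the trend, fitted on 0 to 8 Gy and scaled to 12 Gy, was -4.81 with an adjusted p of 0.00125, against -3.07 with it. The 8 Gy change without slide 5 was -3.28. The probe was not well above background in any liver, and the probe of the opposite strand, A_30_P01027726, had a lung trend of -0.46 ± 0.36 and was not called.

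A_30_P01025011 (chr6:117827499-117851478, strand F) followed a like course in lung, from 8.03, 7.38 and 8.28 at 0 Gy to 6.49, 6.26 and 6.21 at 2 Gy, 5.80, 5.13 and 5.23 at 4 Gy, 5.14, 4.86 and 5.11 at 8 Gy and 5.54, 5.95 and 5.29 at 12 Gy. It was called at 2, 4, 8 and 12 Gy, and its trend was -2.01 ± 0.46 with all arrays and -4.18 without slide 5 (adjusted p = 0.00125). The latter is scaled beyond 8 Gy, where its change without slide 5 was -2.90. Its 12 Gy lungs were not lower than its 8 Gy lungs. Another probe within the interval on the same strand, A_30_P01022162, had a lung trend of -0.31 and was not called.

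A_30_P01021863 (chr10:69819062-69871640, strand F) was at 6.79, 8.46 and 7.55 at 0 Gy, 5.54, 7.11 and 5.55 at 1 Gy and 5.79, 5.27 and 5.41 at 2 Gy in lung, and no lung of 4 Gy or more was well above background. At 1 Gy the groups overlapped. The level was at least 6.52-fold lower at 4 Gy (adjusted p = 0.00159), and the trend without slide 5 was -3.71 (adjusted p = 0.0386). A_30_P01024915, a short interval inside it on the same strand, was called in lung at 12 Gy, at least 1.11-fold lower (adjusted p = 0.0203).

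The part of lymphocytes in these lung values was not tested, but their markers moved in the same samples. Of 14 B cell genes 11, 12 and 12 were called lower at 4, 8 and 12 Gy in lung, and of 13 T cell genes 9, 10 and 12. The summed level of the B cell list was 22590 to 48606 in the control lungs and 4250 to 5706 at 8 Gy. For the T cell list it was 15801 to 62289 and 5378 to 6001. The erythroid list had 25064 to 26465 and 11561 to 14875, and the neutrophil list 72619 to 86623 and 75004 to 102564. Of the B cell genes 5 were well above background on all 18 lung arrays.

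A_30_P01018185 (chr8:126396600-126407275, strand F) fell later. Its lungs were at 7.29, 7.73 and 7.76 at 0 Gy, 7.08, 6.64 and 6.89 at 4 Gy, 6.49, 6.48 and 4.94 at 8 Gy and 5.71, 5.79 and 5.70 at 12 Gy, with 4.94 being mouse 25 on slide 5. The fall was at least 3.63-fold at 12 Gy (adjusted p = 0.000905), and without slide 5 the trend was -1.62 (adjusted p = 0.00105). The probe of the opposite strand, A_30_P01024600, was called higher in liver at 8 and 12 Gy, at 1.28 and 1.07 ± 0.17 (adjusted p = 0.000463 and 0.00139), and had a lung trend of -0.03 ± 0.24. The liver trend of the strand F probe was -0.26 ± 0.19 and was not called.

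Among the lincRNAs that rose in lung, overlapping intervals on chromosome 16 had a common course. A_30_P01033296 (chr16:34524589-34573439, strand R) was at 8.63, 6.60 and 7.50 at 0 Gy and at 9.78, 10.19 and 9.29 at 12 Gy, and A_30_P01021999 (chr16:34559623-34560462, strand R), inside it, at 6.88, 5.35 and 5.43 and at 7.79, 8.01 and 8.08. In both probes the control lung of mouse 1 was the highest control, and the 1 Gy lungs lay among the controls. The trends were 2.30 ± 0.32 (adjusted p = 5.66e-05) and 2.16 ± 0.26 (adjusted p = 1.16e-05). Without slide 5 they were 2.12 (adjusted p = 0.0683, no longer called) and 2.20 (adjusted p = 0.0264). The strand F probe of the long interval, A_30_P01025847, had a lung trend of 0.18 and was not called. A_30_P01021999 was well above background in no liver and was not tested there.

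A_30_P01018482 (chr12:5303823-5379098, strand R), well above background in all lungs and in no liver, was at 7.02, 6.25 and 6.21 at 0 Gy, 6.69, 6.70 and 6.71 at 1 Gy, 8.62, 7.70 and 8.13 at 2 Gy, 9.08, 9.09 and 8.88 at 4 Gy, 8.46, 8.60 and 8.50 at 8 Gy, and 8.63, 8.84 and 8.00 at 12 Gy. From 2 Gy on each lung lay above all controls, and the largest log2 change, 2.52 ± 0.25, was at 4 Gy (adjusted p = 3.87e-05). Its trend was 1.78 ± 0.50 (adjusted p = 0.0114) and 3.59 without slide 5 (adjusted p = 0.0261). The latter is scaled beyond 8 Gy, where its change without slide 5 was 2.04. A_30_P01032425 (chr8:26345571-26346095, strand R) stood at 14.29, 13.91 and 13.37 in the control lungs, 14.59, 14.55 and 15.57 at 8 Gy and 15.57, 15.70 and 15.62 at 12 Gy. The third 8 Gy lung was mouse 25, on the slide of the 12 Gy lungs. The trend was 1.61 ± 0.19 (adjusted p = 1.17e-05) with slide 5 and 1.02 (adjusted p = 0.0744) without it. In liver the probe held at 6.00 to 6.40 at all doses.

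A pair of the 10 lung probes with the largest absolute trends changed direction when slide 5 was left out. A_30_P01029029 (chr7:140081171-140123058, strand R) was at 9.14, 9.75 and 9.27 at 0 Gy, 10.39, 10.82 and 10.54 at 2 Gy, 10.22, 10.95 and 7.16 at 8 Gy and 7.49, 7.67 and 7.64 at 12 Gy. Mouse 25, at 7.16, lay with the 12 Gy lungs. The trend was -1.97 ± 0.63 (adjusted p = 0.0235) with all arrays and 1.74 (adjusted p = 0.059) without slide 5. In liver A_30_P01029029 was called higher at 4 Gy, at 1.08 ± 0.25 (adjusted p = 0.0287). For A_30_P01032271 (chr5:121669792-121732542, strand R), which was near background on most arrays, the lung trend was -1.92 ± 0.46 (adjusted p = 0.00401) and 0.08 without slide 5.

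Across the tissues 13 lincRNA probes were called in both, at a dose or on the trend, which is 22.4% of the 58 of liver, 5.04% of the 258 of lung and 0.562% of the 2315 tested in both. Over all 34965 probes tested in both tissues 1.37% were called in both, against 3.62% of those tested in liver and 9.16% of those tested in lung. Those called in both made up 34.5% of all probes called in liver and 11.9% of all called in lung, above the lincRNA shares. A_30_P01030698 counts among the 13 through a liver call that its detection at 0 Gy alone allowed. In 11 of the 13, overlapping chromosome 1 probes included, the trends had the same direction, a share not counted over all probes. Besides A_30_P01020960, A_30_P01021359, the chromosome 1 probes, A_30_P01021179, A_30_P01030698 and A_30_P01019123, these held A_30_P01020533 (chr9:106170918-106177894, strand F), with trends of 1.22 ± 0.27 in liver and 1.02 ± 0.19 in lung. Its lung call was lost without slide 5, at 0.54 (adjusted p = 0.432), and with the slide as a random block, at 0.98 (adjusted p = 0.00457, under the fold threshold). A_30_P01026518 (chr8:93337794-93348869, strand R) was called at 12 Gy in both, at least 2.19-fold higher in liver and at a log2 change of 1.12 ± 0.18 in lung. A_30_P01031079 (chr14:73746324-73749119, strand R) was called at 4 Gy in liver and at 12 Gy in lung, both higher. The 2 with opposite trends, A_30_P01029029 and A_30_P01023258 (chr8:13507348-13543773, strand F), were called higher in liver and lower in the 12 Gy lungs. The log2 change of A_30_P01023258 was 1.06 ± 0.19 in liver at 8 Gy and -1.22 ± 0.26 in lung at 12 Gy. Its lung trend was -1.11 with all arrays and 0.29 without slide 5 (adjusted p = 0.686).

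Several probes often stand for 1 interval, and their responses were compared. Of 3229 intervals ignoring strand over all 4449 probes, 832 had probes for both strands, of which 577 were well above background on both, 216 on 1 and 39 on neither. On the same strand 233 intervals had 2 or more of the described probes, 513 probes in all. Of 156 such sets tested in liver 4 held a called probe, and in 0 of the 4 were all probes called. Of 194 sets in lung 29 held a called probe, in 4 of them all were called, and no set was called in both directions. The trends of a set differed by a median of 0.27 in liver and 0.39 in lung.

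The genomic neighbours of the responders, taken as other lincRNA probes within 100 kb on the array, are given beside the share of all tested lincRNA probes called at a dose or on the trend, which was 2.18% in liver and 8.17% in lung. Of the 58 liver responders 48 had a tested neighbour. On the same interval 0 of 5 same-strand and 0 of 17 opposite-strand neighbours were called in liver. On other intervals 6 of 55 same-strand neighbours (10.9%) and 2 of 40 opposite-strand neighbours (5%) were called, all 8 in the responder's direction. Neighbouring intervals can overlap and a pair counts from each side, so these shares carry no test, and the chromosome 1 probes supply several of them. Of the 258 lung responders 220 had a tested neighbour. On the same interval 12 of 43 same-strand (27.9%) and 12 of 97 opposite-strand neighbours (12.4%) were called in lung, all in the same direction. On other intervals 38 of 267 same-strand neighbours (14.2%) were called, 34 in the same direction and 4 in the opposite, and 32 of 249 opposite-strand neighbours (12.9%), 14 in the same and 18 in the opposite. A liver pair lay on chromosome 5, where A_30_P01025162 (chr5:52581905-52637135, strand F), 40489 bp from A_30_P01020464, was called with a liver trend of 1.27.

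Without irradiation the tissues differed in many lincRNAs. With the 36 arrays normalized together, 287 of the 3509 probes were higher in lung than in liver at 0 Gy and 626 lower (8.18% and 17.8%), against 18.3% and 17.3% of all probes. Of the 287, 102 were not well above background on any liver array, and of the 626, 56 on no lung array. On all arrays of both tissues 55 and 303 of them were well above background. The largest differences were in A_30_P01017818 (chr16:11008534-11013759, strand F), at 15.70 ± 0.05 (SD, n = 3) in lung and 8.15 ± 0.10 in liver, and A_30_P01032425, at 13.70 ± 0.51 and 7.04 ± 0.07. A_30_P01018239 (chr10:81069014-81083448, strand F) was at least 93.1-fold higher in lung.

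In the other direction A_30_P01018133 (chr1:71939741-71947891, strand F) was at least 170-fold higher in liver, A_30_P01028418 (chr16:86770170-86874921, strand R) at least 165-fold and A_30_P01030527 (chr6:40693617-40720167, strand F) at least 110-fold. None of these 3 was well above background in a control lung, and all were so on all 18 liver arrays. With all arrays A_30_P01032425 was the only one of these 6 probes called on a dose trend in either tissue. Without slide 5 its lung trend was not called, as given above, whereas that of A_30_P01018239 was 1.13 ± 0.26 (adjusted p = 0.0208, against -0.23 with all arrays) and was called. The 8 Gy change of A_30_P01018239 without slide 5 was 0.79, under the fold threshold. The liver levels of A_30_P01018133 ranged from 10.86 to 11.35 over all doses.

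The dose trends of the tissues were compared directly. The lung trend was above the liver trend in 79 of the 3509 lincRNA probes and below it in 127 (2.25% and 3.62%), against 3.56% and 3.68% of all 47376 probes tested. The arrays of slide 5 bear on these counts, since without them 15 and 4 probes were called, and with the slide as a term 0 by limma. Among the 5 largest differences in each direction were A_30_P01033296, at 2.13 ± 0.47 (adjusted p = 0.00197), and A_30_P01026441 (chr14:77077374-77086910, strand F), at 2.17 ± 0.40 (adjusted p = 0.000425), which stood at 5.91, 6.42 and 6.20 in the 0 Gy lungs and 6.87, 8.21 and 7.71 in the 12 Gy lungs and was near background in most livers. A_30_P01026642 (chr19:56815544-56821403, strand R) had a difference of 2.04 ± 0.48, and 1 of its 12 Gy lungs, at 9.17, was far above the other 2, at 6.57 and 6.34. It was well above background in 1 liver, and A_30_P01033296 in 3. Without slide 5 these differences were 1.9 in A_30_P01033296 (adjusted p = 0.225), 1.70 in A_30_P01026441 (adjusted p = 0.169) and 1.12 in A_30_P01026642 (adjusted p = 0.257), and none was called.

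Below the liver trend, A_30_P01021863 differed by -2.27 ± 0.60 (adjusted p = 0.00802) and A_30_P01022616 (chr17:27445260-27455641, strand R) by -2.23 ± 0.52 (adjusted p = 0.00329). A_30_P01032208 (chr1:71730016-71740391, strand R) differed by -2.57 ± 0.48 (adjusted p = 0.000455), with lungs at 5.16, 5.36 and 5.34 at 8 Gy and 3.74, 3.38 and 3.37 at 12 Gy. A_30_P01021863 was well above background in no liver and A_30_P01032208 in 1, so their liver trends rest on levels at background. Without slide 5 the difference of A_30_P01021863 was -3.48 (adjusted p = 0.0414) and still called, while those of A_30_P01022616 and A_30_P01032208 were -0.98 (adjusted p = 0.641) and -1.36 (adjusted p = 0.412) and were not. A_30_P01028813 (chr1:81854900-81906900, strand F), A_30_P01018109 (chr8:49237358-49246495, strand F) and A_30_P01022156 (chr9:89159907-89160815, strand F) were well above background on 1 of 36 arrays each, so that their differences of 2.67, -2.16 and 2.20 rest on levels at background.

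Of the 7 region probes that the study lists or names as changed with dose in liver, which were picked on these same livers and are no independent evidence, 3 passed the liver trend test here, A_30_P01020960, A_30_P01026536 and A_30_P01025143. A_30_P01019037 (chr19:5834117-5835940, strand R) had a liver trend of 1.5 ± 0.49 (adjusted p = 0.063) and A_30_P01025122 (chr6:31007184-31007725, strand R) of 1.28 ± 0.41 (adjusted p = 0.052). Both were called in lung, at 1.65 ± 0.35 and 1.43 ± 0.25, and neither was called there without slide 5 (1.31 and 1.32). A_30_P01028589 (chr7:134835448-134842613, strand F) had trends of 0.36 ± 0.25 in liver and -0.88 ± 0.23 in lung, which were not called. The study names this probe for a non-monotonic course, which a linear trend does not test. Its own linear trends came from a nested model of dose within tissue, unlike the fit of liver alone used here.

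Named genes gave a reference for the same arrays. Of 22 p53 target genes 6, 11 and 13 were called higher at 4, 8 and 12 Gy in liver and 9, 14 and 16 in lung, and 0 lower by limma, with a median liver trend of 1.65 and a median lung trend of 1.28. Of 15 named lncRNAs 11 matched a probe. In liver 2 were called on the trend, the small nucleolar RNA host genes Snhg15 at 1.70 ± 0.17 (adjusted p = 5.52e-06) and Snhg1 at 1.09 ± 0.24. In lung 2 were called, Mir22hg, the host gene of miR-22, at 1.08 ± 0.15 and Snhg15 at 1.01 ± 0.15. The median trend of the 11 was 0.33 in liver and 0.21 in lung.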

How the data were processed

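RNA of liver and lung from 18 female mice was measured on 36 Agilent 1-colour arrays, and 36 miRNA arrays of the same series were not used. The authors deposited each array's scanner output from Agilent Feature Extraction 11.5.1.1, in linear intensity per spot, together with a table of normalized intensity whose procedure is not given in the sources used here. The labels put the samples in liver and lung, while the series' design text speaks of hearts.

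Median spot and background intensities were corrected with normexp (offset 0) and quantile normalized within each tissue with limma 3.58.1 in R 4.3.3. Control spots were left out of the tests, outlier spots were set to missing, a probe's log2 level was the mean of its spots, and detection on an array (well above background) needed a share of at least 0.5 of these spots. Every probe detected by 1 or more arrays of a fit was tested, over the whole array, with dose as 6 groups or as a linear trend, expressed over 12 Gy, and Benjamini-Hochberg adjustment. Tissues were compared after normalizing the 36 arrays together. A bound written as at least a fold sets the brighter group's mean against, per array, the lowest signal of any detected probe or the dim probe's own signal, whichever is higher. The procedure was tested on simulated data.

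The members and lists were chosen with earlier results of these data known. Regions were named if called at 3 or more doses or on the trend of a tissue (values for at most 10 per tissue, by size of trend), in both tissues (at most 6, by the smaller trend), among the 5 largest trend differences or the 3 largest tissue differences in each direction, or on the study's own list. Neighbours, probes of the same intervals, the liver probes called at 2, 4 and 8 Gy, A_30_P01024020, A_30_P01018486, A_30_P01018482 and the other regions called in both tissues were picked after their values were seen. The main fits did not pair liver and lung by mouse number. The correlations of deviations between the tissues of a mouse lay between -0.051 and 0.046 over 18 mice. Such values cannot show whether both organs of a number came from the same animal. Alternatives were another offset, scaling, filter and averaging, the slide as a term or random block, fits without slide 5 or without each mouse, and the mouse as a block.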

Additional observations from a re-analysis of the deposited data

Results flagged for a closer look

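The difference between the dose trends of lung and liver was called by limma in 206 lincRNA probes. The values below are those of called probes described above. These differences passed a test of the difference itself. For a probe well above background on few or no arrays of a tissue, that test used a trend of levels at background. It cannot decide there whether the tissues differed, and the difference is a description. Such probes are named here and at the end of this section. The 12 Gy lungs lay on slide 5, and the part of the slide cannot be told apart from dose. A_30_P01028813, A_30_P01022156 and A_30_P01018109 were well above background on 1 array each. Their differences rest on levels at background, so the test cannot decide whether the tissues differed. A_30_P01018486 entered the fit only through the groups where it was high, so its difference is given as a description.

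The lung trend was above the liver trend by 2.67 in A_30_P01028813, 2.20 in A_30_P01022156, 2.17 in A_30_P01026441, 2.13 in A_30_P01033296, 2.04 in A_30_P01026642, 1.79 in A_30_P01021461, 1.64 in A_30_P01021999, 1.5 in A_30_P01018486 and 1.48 in A_30_P01032425, each on the log2 scale over 12 Gy. In A_30_P01021461 the larger change was the fall in liver. In A_30_P01026642 mouse 26 at 12 Gy carried the lung value.

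Below the liver trend it differed by -2.57 in A_30_P01032208, -2.52 in A_30_P01029029, -2.27 in A_30_P01021863, -2.23 in A_30_P01022616, -2.16 in A_30_P01018109, -2.15 in A_30_P01028905, -2.05 in A_30_P01032271, -1.57 in A_30_P01023258, -1.48 in A_30_P01018185, -1.30 in A_30_P01024915, -1.18 in A_30_P01025162 and -1.17 in A_30_P01028589. A_30_P01028905, A_30_P01021863 and A_30_P01021999 were well above background in no liver, and A_30_P01018486 in no lung. A_30_P01026642 and A_30_P01032208 passed in 1 liver, A_30_P01026441 and A_30_P01032271 in 2, and A_30_P01033296 in 3. Both livers of A_30_P01026441 were of 0 Gy.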

How the results depend on the processing

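Counts are called lincRNA probes, and the cause of a change in a count was not tested. A normexp offset of 50 gave 2, 8, 12 and 6 in liver at 1, 4, 8 and 12 Gy and 11 on the trend, 7, 13 and 67 in lung at 4, 8 and 12 Gy and 47 on the trend, 45 trend differences and 460 tissue differences at 0 Gy. Processed signals minus the 75th percentile gave 7, 36, 109 and 48 in liver at 2, 4, 8 and 12 Gy and 54 on the trend, 3, 20 and 333 in lung at 1, 4 and 12 Gy and 419 on the trend, and 336 trend differences. The series values gave 31, 93 and 47 in liver at 4, 8 and 12 Gy and 50 on the trend, 4, 24, 37 and 336 in lung at 1, 4, 8 and 12 Gy and 394 on the trend, and 360 trend differences. With 36 arrays normalized together liver had 13, 35, 88 and 46 at 2, 4, 8 and 12 Gy and 53 on the trend, and lung 3 at 1 Gy. The stricter filter gave 2 in liver and 1 in lung at 1 Gy. The filter on dim probes left out and probes averaged by name moved no count past 1.5 times.

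Shares of higher and lower calls moved by over 10 points in several settings. In liver at 2 Gy they were 3 and 1 (offset 50), 5 and 1 (series values) and 8 and 5 (36 arrays together). At 8 Gy they were 100 and 9 (processed signals), 83 and 10 (series values) and 56 and 32 (36 arrays together), at 12 Gy 27 and 19 (36 arrays together), and on the trend 9 and 2, 44 and 10, and 41 and 9 (offset 50, processed signals, series values). In lung they were 3 and 7 at 2 Gy (series values), 14 and 6 at 4 Gy (processed signals), 6 and 7 at 8 Gy (offset 50), 138 and 195, and 103 and 233 at 12 Gy, and 168 and 251, and 119 and 275 on the trend (processed signals, series values). Trend differences were 24 and 21, 73 and 263, and 58 and 302 (offset 50, processed signals, series values). The median of all probes at 0 Gy, lung minus liver, was -0.285 and -0.324 with the processed signals and the series values, against -0.052, and that of the trend differences -0.104 with the series values, against 0.083.

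The slide as a term gave 1, 2 and 15 in liver at 2, 4 and 8 Gy, 3 on each tissue's trend and 0 trend differences. As a random block it gave 0, 6 and 63 in lung at 2, 4 and 12 Gy. Without slide 5, chosen after seeing the data as was the random block, lung had 11 and 19 at 2 and 4 Gy, 93 on the trend and 19 trend differences, 14 with liver also kept to 0 to 8 Gy. Among called trends that changed sign were those of A_30_P01023258 (lung 0.29 without slide 5), A_30_P01029029 (lung 0.39 with the slide term and 1.74 without slide 5, trend difference 0.36, 1.3 and, at 0 to 8 Gy, 0.46), A_30_P01032271 (lung 0.076 without slide 5) and A_30_P01028813 (trend difference -0.027 at 0 to 8 Gy).

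Leaving out each mouse gave 0 to 2, 1 to 7, 6 to 19, 21 to 52 and 19 to 23 in liver from 1 to 12 Gy and 21 to 31 on the trend. In lung it gave 0 to 3, 4 to 11, 9 to 20, 19 to 40 and 175 to 273, and 147 to 243 on the trend. Trend differences were 152 to 235 and tissue differences 880 to 934. Single mice moved counts past 1.5 times: in liver mice 1, 2 and 12 at 1 Gy (2 each), 21, 3 and 13 at 2 Gy (1, 7 and 1), 11 and 4 at 4 Gy (6 and 11) and 25 at 8 Gy (52), and in lung mice 1 and 12 at 1 Gy (1 and 3), 23 and 25 at 2 Gy (4 and 11), 4 at 4 Gy (20) and 1 and 5 at 8 Gy (39 and 40). With the mouse as a replicate block there were 201 trend differences and 908 tissue differences, within 1.5 times of the unpaired counts. Probes near background have only a bound in their dim group.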
